A study of Sus scrofa with 2 samples.

Results

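Wnt ligands, their receptors and the regulators of the pathway were examined in the hippocampus of Rongchang piglets. The 52 genes described here were taken by symbol from 25322 gene IDs in an expression table. They are every row whose symbol is a WNT, FZD, DKK, SFRP, DVL or RSPO gene, together with WIF1, LRP5, LRP6, ROR1, ROR2, RYK, AXIN1, AXIN2, APC, CTNNB1, GSK3B, TCF7L2, LEF1, PORCN, WLS, LGR4, RNF43 and ZNRF3. The rule reads gene names and no values, but it was written with earlier results of these data known. Of 63 symbols of this kind with an ID in the naming table, 11 had no matching row and are not analysed here: WNT5A, WNT6, WNT7A, WNT9B, FZD1, FZD8, DKK2, DKKL1, SFRP4, RSPO1 and NOTUM. TCF7L1 and WNT4 also fit the rule but had no ID in the naming table under these symbols, so they are not covered either.

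The study asked how the hippocampal transcriptome of piglets given iron dextran, an injectable iron preparation, differed from that of control piglets. RNA was sequenced from 1 control sample and 1 iron dextran sample, both of the Rongchang breed at the piglet stage and labelled "wide type" for genotype. The sources used here do not give the dose, the exact age, the sex or how many animals there were. Each sample carries 2 names in its label, with no statement of what they are, and 1 value per gene. There is therefore no spread between replicates: no test was made, and every difference below compares 2 samples, not 2 conditions.

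Wnt proteins are secreted, lipid-modified ligands that bind Frizzled receptors at the cell surface. With the co-receptor LRP5 or LRP6 they act through Dishevelled to halt the destruction complex of AXIN, APC and GSK3B, so that beta-catenin accumulates and acts in the nucleus with TCF and LEF factors. Other branches, with receptors such as ROR2 and RYK, act on the cytoskeleton and on calcium without beta-catenin. In the hippocampus the pathway is known for its part in forming the structure, in the birth of granule neurons in the dentate gyrus and in synapse assembly.

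Levels are in FPKM, a count of sequenced fragments divided by transcript length and by the mapped total, so genes can be compared with each other per length. The columns summed to 924070 FPKM in the control and 850165 in the iron dextran sample, and 12557 IDs reached a mean of 1 FPKM; these are called measured genes. Differences are in log2(FPKM + 1), taken as iron dextran minus control, a scale that understates the change of low genes. A gene is called higher or lower where it differs by at least 1.5-fold on that scale. The number of fragments behind each value is unknown, so no counting interval is given. SNAP25, a marker of neurons of any brain region, had 1032 and 952 FPKM. Of the marker lists for hippocampal subfields, 6 of 10 dentate granule genes, 4 of 8 CA1 genes and 6 of 11 CA3 and CA2 genes were measured. These levels show neural tissue and were not compared with another region, so they do not check the label of hippocampus itself. The dentate marker PROX1 was low, at 0.761 and 0.858 FPKM, and TDO2, of the same list, was listed at 0 in both samples.

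Most Wnt genes had nearly the same level in both samples. Of the 52, 37 were measured and 15 lay below a mean FPKM of 1. None of the 37 was higher in iron dextran by the 1.5-fold rule, where 2.47% of all measured genes were. WNT5B and SFRP5 were lower, that is 2 of 37, where 1.47% of all measured genes were lower and 3.94% differed either way. In the ranges of mean FPKM that hold these 2 genes, 1 to under 2 and 2 to under 5, 3.36% and 2.37% of genes were lower. A count of 2 genes is too small to say anything particular about Wnt genes. The median log2 difference of the 37 was -0.011, with quartiles at -0.16 and 0.10. Over all measured genes the median was -0.0046, with quartiles at -0.12 and 0.14. By direction alone 17 of the 37 were above 0 and 20 below.

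**Figure D1:**
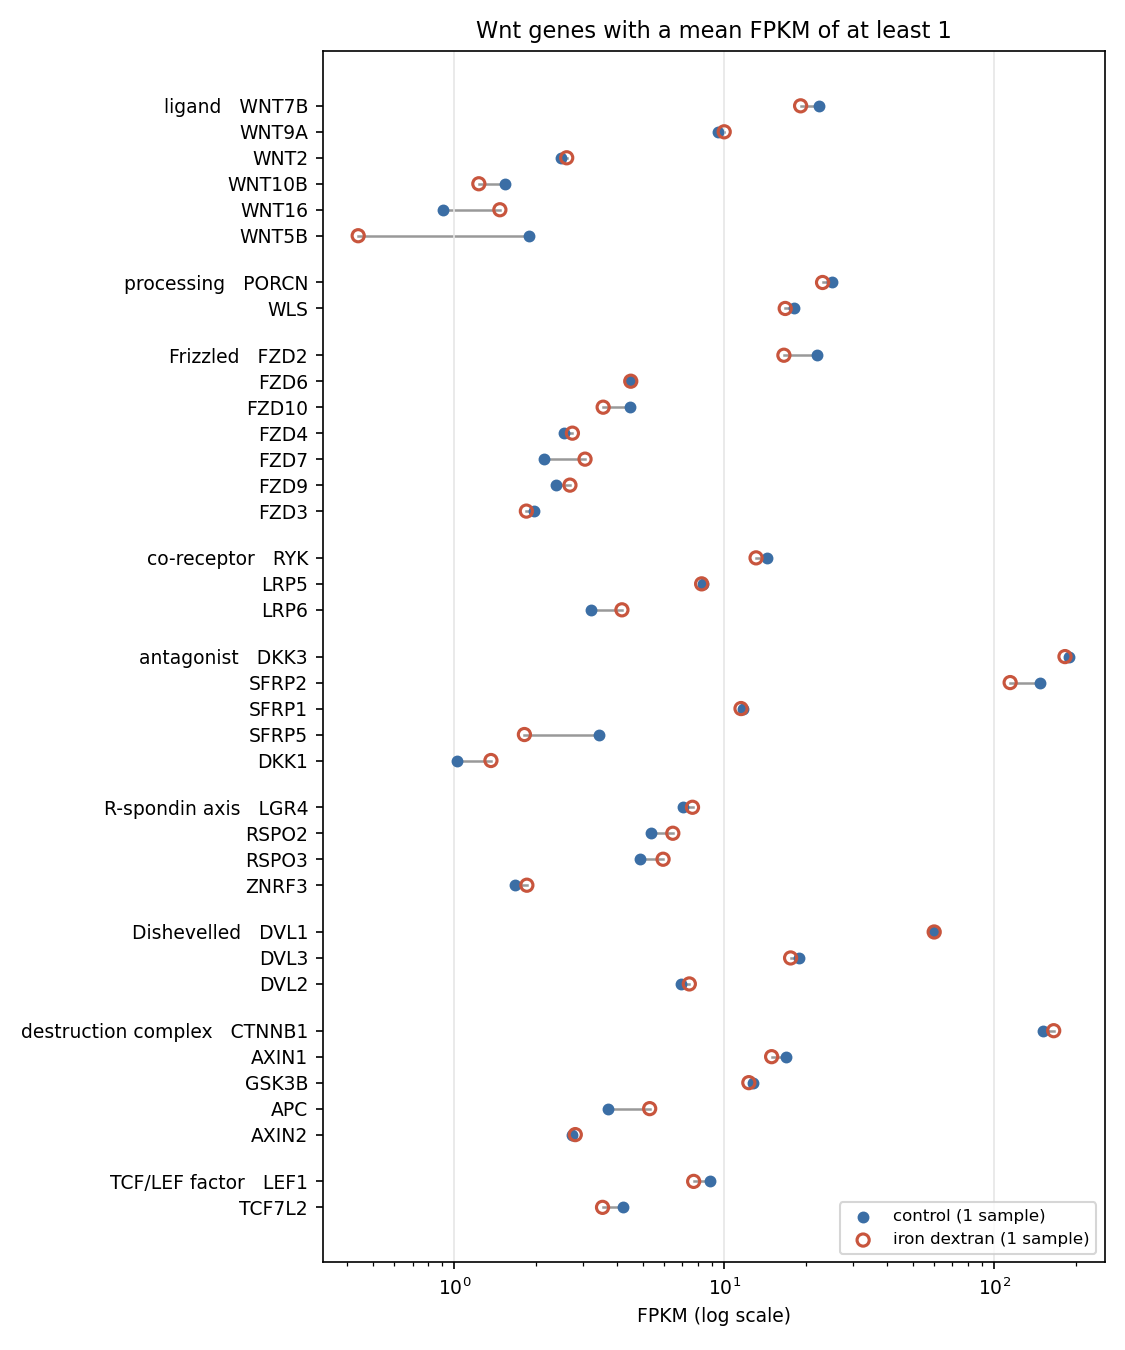
FPKM (log scale) of the 37 measured Wnt genes in control (filled blue) and iron dextran (open red), 1 sample each, ordered by role. Most pairs of points lie close together, and the longest lines are those of WNT5B (1.89 and 0.440 FPKM) and SFRP5 (3.44 and 1.82 FPKM).

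The levels themselves spanned a wide range. DKK3 was the most abundant of the 52 in both samples, followed by CTNNB1, SFRP2 and DVL1 in the same order in both. In sum the 52 genes came to 811 FPKM in the control and 771 in the iron dextran sample. With 1 sample a group, the order of genes with similar levels has no error attached to it.

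Among the 14 ligands with rows, WNT7B was the most abundant and WNT5B differed most. WNT7B, a ligand of the beta-catenin branch with known roles in brain vessels and dendrites, had 22.3 FPKM in the control and 19.2 in the iron dextran sample. It made up 54.0% of the summed ligand FPKM in control and 52.0% in iron dextran. WNT9A had 9.51 and 9.99 FPKM, which was 22.99% and 27.1% of the ligand sum. These 2 ligands thus carried most of the ligand sum in both samples, but that sum leaves out WNT4, WNT5A, WNT6, WNT7A and WNT9B.

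WNT5B, a ligand mostly linked to the branches without beta-catenin, had 1.89 FPKM in the control and 0.440 in the iron dextran sample. The iron dextran level was 0.233 of the control level, and the log2 difference was -1.01. An absolute difference larger than this was seen in 1.14% of measured genes. WNT5B had a mean FPKM of 1.17, just above the minimum, and reached it through the control sample alone. In the range of mean FPKM from 1 to under 2, differences past 1.5-fold were more common, at 8.98% of 1548 genes. Its close relative WNT5A is among the genes not analysed here. In bulk tissue, fewer cells of a type and less RNA per cell cannot be told apart, for this gene and for all that follow.

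The other 5 measured ligands, WNT7B and WNT9A among them, were within the 1.5-fold rule. WNT16 had 0.911 FPKM in the control and 1.47 in the iron dextran sample, a ratio of 1.62 and a log2 difference of 0.37. With a pseudocount of 0.1 in place of 1 its log2 difference was 0.64, which is past 1.5-fold. With that pseudocount 558 of 12557 measured genes were higher, against 310 with 1. WNT16 had a mean FPKM of 1.19, just above the minimum, and reached it through the iron dextran sample alone. WNT2, known from lung and vessel development, had 2.48 and 2.61 FPKM, and WNT10B had 1.54 and 1.23. So the measured ligands were split evenly, 3 above 0 and 3 below, with a median of -0.066.

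A further 8 of the 14 ligands with rows lay below a mean FPKM of 1, where small differences in fragments give large ratios. WNT3, a ligand of the beta-catenin branch that hippocampal astrocytes are known to release in the dentate gyrus, had 0.869 FPKM in the control and 0.399 in the iron dextran sample. WNT10A had 0.308 and 0.567 FPKM, and WNT2B 0.542 and 0.383. The lowest of those above 0 in both were WNT11, with 0.330 and 0.261 FPKM, and WNT1, with 0.261 and 0.0798. WNT8B, whose embryonic expression marks the medial edge of the cortex, had 0.408 FPKM in control and was listed at 0 in iron dextran. WNT3A, which is needed for the hippocampus to form in the embryo, was listed at 0 in control and had 0.226 FPKM in iron dextran. WNT8A was listed at 0 in both. A value of exactly 0 may be an estimate that failed, so no fold is given for these genes.

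Several Wnt genes lie side by side in the newer pig assembly Sscrofa11.1, used here for gene order only. WNT1 and WNT10B are direct neighbours, as are WNT3A and WNT9A. WNT9A, at 9.51 and 9.99 FPKM, was far above its neighbour WNT3A in both samples. WNT10B was likewise above WNT1 in both samples, and both of these had the lower value in iron dextran. Next to WNT5B lies ERC1, a scaffold of the presynaptic active zone, which had 1.22 and 1.26 FPKM, and next to SFRP5 lies ZFYVE27, which had 57.2 and 57.6 FPKM. The low WNT5B and SFRP5 values in iron dextran were therefore not shared by these neighbours. The neighbours on the other side, FBXL14 of WNT5B and GOLGA7B of SFRP5, had no row under these symbols and could not be read. 

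Both measured genes of ligand processing had slightly lower values in iron dextran. PORCN, the acyltransferase that attaches the lipid to Wnt proteins, had 25.03 and 23.1 FPKM. WLS, the carrier that brings Wnt proteins to the cell surface, had 18.1 and 16.8 FPKM. Their log2 differences of -0.11 and -0.098 both turned slightly above 0 with both columns set to an equal total (0.0055 and 0.015). That scaling moved the median of all measured genes from -0.0046 to 0.10, and it turned 9 of the 37 Wnt differences from below 0 to above it. None of the positive differences was turned by it.

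**Figure D2:**
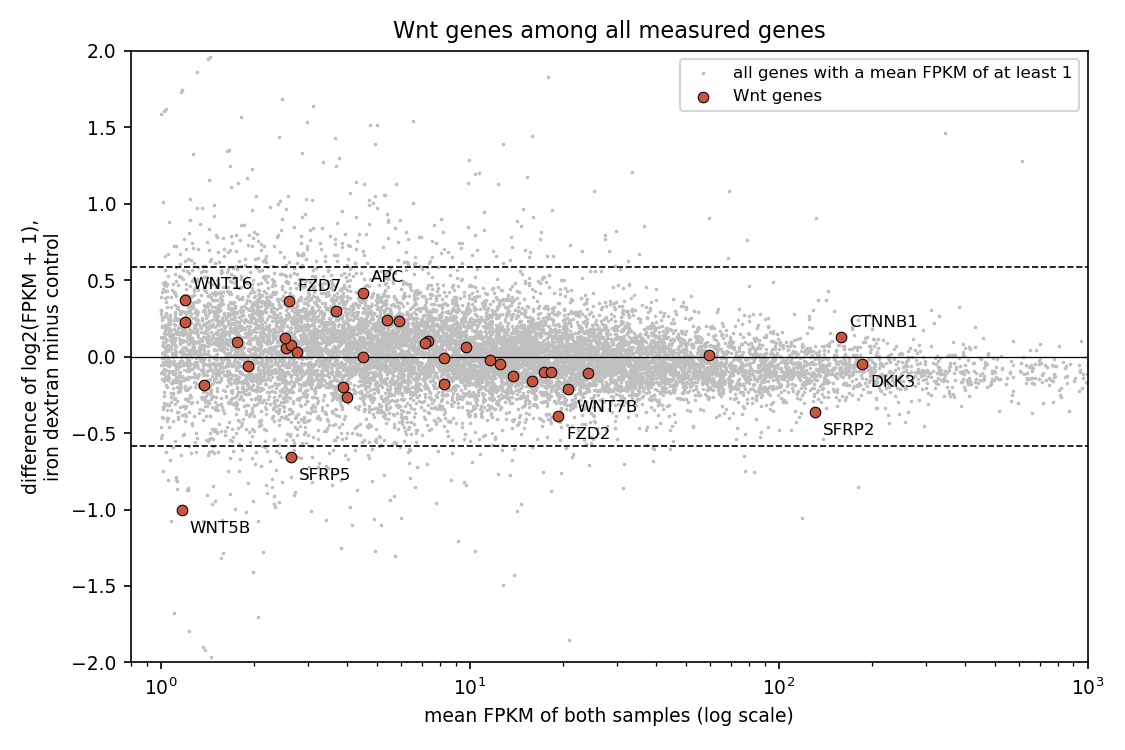
Iron dextran minus control in log2(FPKM + 1) against mean FPKM of both samples (log scale) for measured genes (grey) and the 37 measured Wnt genes (red); dashed lines mark 1.5-fold and 123 genes lie outside the axes. The grey cloud widens towards low levels, and among the Wnt genes only WNT5B and SFRP5 lie outside the dashed lines, both below.

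Of the 8 Frizzled receptors with rows, 7 were measured, and none passed the 1.5-fold rule. FZD1 and FZD8 had no row, so the sums below leave them out. FZD2 was the most abundant, with 22.1 FPKM in the control and 16.6 in the iron dextran sample, a log2 difference of -0.39. It made up 54.8% of the summed Frizzled FPKM in control and 47.2% in iron dextran. FZD7, a receptor often studied in stem cells, went the other way, with 2.15 and 3.05 FPKM and a log2 difference of 0.36. FZD10 had 4.47 and 3.56 FPKM, a log2 difference of -0.26. FZD4, which on endothelial cells also binds the non-Wnt ligand norrin, had 2.55 and 2.74 FPKM. FZD9, which lies in the region deleted in Williams syndrome, had 2.38 and 2.68 FPKM. FZD6 and FZD3, receptors of planar cell polarity and axon guidance, were nearly level, at 4.52 and 4.50 FPKM and at 1.97 and 1.85 FPKM. FZD5 was low, at 0.186 and 0.224 FPKM. The family thus held differences in both directions, 3 above 0 and 4 below, with a median of -0.0056. The order of abundance below FZD2 changed from FZD6, FZD10, FZD4 in control to FZD6, FZD10, FZD7 in iron dextran.

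None of the 3 measured co-receptors passed the 1.5-fold rule, and LRP6 differed most. LRP6, an obligate partner of Frizzled in the beta-catenin branch, had 3.21 FPKM in the control and 4.18 in the iron dextran sample, a log2 difference of 0.30. Its relative LRP5 had 8.31 and 8.24 FPKM, so LRP5 stayed the more abundant of the pair. RYK, an atypical receptor kinase that binds Wnt ligands and guides axons, had 14.4 and 13.1 FPKM. The receptor tyrosine kinases ROR2 (0.728 and 0.757 FPKM) and ROR1 (0.181 and 0.211 FPKM), receptors for WNT5A-type ligands, were both below a mean FPKM of 1. ROR2 was the member nearest below that minimum, at a mean of 0.743.

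Secreted antagonists held 2 of the 3 most abundant Wnt genes and 1 of the 2 genes called lower. SFRP5 belongs to the secreted Frizzled-related proteins, which bind Wnt ligands outside the cell. It had 3.44 FPKM in the control and 1.82 in the iron dextran sample, 0.528 of the control level, and a log2 difference of -0.66. An absolute difference larger than this was seen in 3.07% of measured genes, and in its range of mean FPKM, from 2 to under 5, 6.58% of 2615 genes passed 1.5-fold either way. Scaled to the same column total its log2 difference was -0.58, just inside the 1.5-fold rule.

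SFRP2, another protein of this family, had 147 FPKM in the control and 114 in the iron dextran sample, a log2 difference of -0.36. It did not pass the 1.5-fold rule, and 11.7% of measured genes had a larger absolute difference. In its range of mean FPKM, from 100 upward, the quartiles of 979 genes were -0.16 and -0.028. SFRP1 was level, at 11.7 and 11.5 FPKM. DKK3, a divergent Dickkopf protein abundant in neurons, had 189 and 183 FPKM. DKK1, which blocks LRP5 and LRP6 and is known as a brake on Wnt signalling in the ageing and stressed hippocampus, had 1.02 and 1.37 FPKM. WIF1, which binds Wnt ligands directly, had 0.651 and 0.448 FPKM, and DKK4 was listed at 0 in both samples. In sum the antagonists came to 354 FPKM in the control and 312 in the iron dextran sample, and most of that gap was SFRP2.

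Markers of other cells differed between the samples in both directions. Of 15 marker genes of meninges and fibroblasts, cells that make some SFRP and Wnt proteins, 11 had rows and none was listed at 0. Their summed level was 83.6 FPKM in the control and 69.2 in the iron dextran sample. Of the 10 measured, 6 were below 0, and 1, CRABP2, was lower by the rule, with 8.58 and 2.87 FPKM. The median log2 difference of these 10 was -0.35. SLC13A4 had 2.05 and 1.18 FPKM. The summed level of 4 ependymal genes was 9.34 and 6.83 FPKM, almost all of it FOXJ1 (8.89 and 6.14 FPKM). FOXJ1 was the only 1 of these 4 that was measured, and TMEM212 went the other way, at 0.183 and 0.528 FPKM. In the other direction, all 7 microglial markers with rows were above 0, with a summed level of 77.1 FPKM in the control and 107 in the iron dextran sample, and 2 were higher by the rule. All 3 measured erythroid genes were higher by the rule, and the 4 with rows summed to 189 and 519 FPKM. The part of these cells in the WNT5B, SFRP5, SFRP2 and FZD2 values was not tested.

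**Figure D3:**
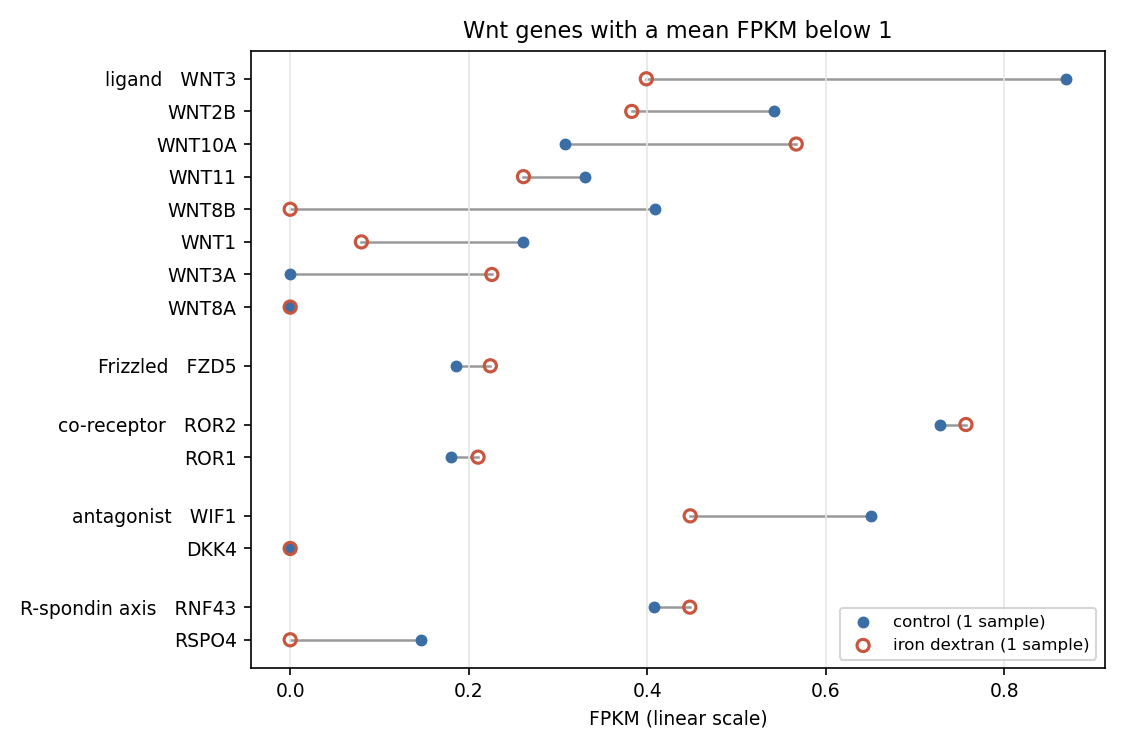
FPKM (linear scale) of the 15 Wnt genes with a mean FPKM below 1 in control (filled blue) and iron dextran (open red), 1 sample each. Every value lies below 0.87 FPKM; WNT8A and DKK4 sit at 0 in both samples, WNT8B and RSPO4 at 0 in iron dextran only, and WNT3A at 0 in control only.

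In the R-spondin axis all 4 measured genes had the higher value in iron dextran, although none passed 1.5-fold. Of all measured genes, 6154 were above 0 and 6402 below. A count of 4 genes is too small to say anything particular about this axis. R-spondins are secreted proteins that bind LGR receptors and remove the ligases RNF43 and ZNRF3, which otherwise take Frizzled receptors off the cell surface. RSPO3 had 4.88 FPKM in the control and 5.93 in the iron dextran sample, and RSPO2 had 5.33 and 6.45. Their receptor LGR4 had 7.02 and 7.62 FPKM. ZNRF3, which counteracts them, had 1.67 and 1.86 FPKM. The log2 differences ran from 0.096 (ZNRF3) to 0.24 (RSPO3), with a median of 0.17. A larger absolute difference than that of RSPO3 was seen in 25.1% of measured genes, so differences of this size are common between these 2 samples. From 5 to under 20 FPKM, the range of LGR4, RSPO2 and RSPO3, the quartiles of all genes were -0.11 and 0.15. RNF43 had 0.408 and 0.448 FPKM, and RSPO4 had 0.147 FPKM in control and was listed at 0 in iron dextran.

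Inside the cell, Dishevelled genes were level. DVL1, the most abundant, had 59.4 and 59.9 FPKM, DVL3 had 18.9 and 17.6, and DVL2 had 6.93 and 7.42. DVL1 made up 69.7% of the summed Dishevelled FPKM in control and 70.5% in iron dextran.

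Beta-catenin and its destruction complex showed no gene past 1.5-fold. CTNNB1, which encodes beta-catenin, a protein that also serves cell adhesion, had 152 FPKM in the control and 166 in the iron dextran sample, a log2 difference of 0.13. APC, the large scaffold of the destruction complex, had 3.71 and 5.29 FPKM and a log2 difference of 0.42. This was the largest positive difference of the 37 genes with a pseudocount of 1; with 0.1 it was 0.50, below that of WNT16 (0.64). Of measured genes, 8.45% had a larger absolute difference than APC. AXIN1, the scaffold that assembles the complex, had 16.9 and 14.97 FPKM, and the kinase GSK3B had 12.8 and 12.3. AXIN2, a scaffold whose transcription beta-catenin itself drives and which is widely read as a gauge of pathway output, was level at 2.72 and 2.81 FPKM.

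Both measured TCF and LEF factors had lower values in iron dextran. LEF1 had 8.86 and 7.70 FPKM, a log2 difference of -0.18. TCF7L2 had 4.22 and 3.54 FPKM, a log2 difference of -0.20. Both are also strongly expressed in the thalamus, which lies next to the hippocampus. Of 15 other markers of thalamus and habenula, 13 had rows, 8 were measured, and GBX2, POU4F1 and SHOX2 were listed at 0 in both samples. Their summed level was 110 FPKM in the control and 108 in the iron dextran sample, and of the 8 measured, 5 were above 0 and 3 below, with a median log2 difference of 0.10. The 2 that differed most were PRKCD, at 12.4 and 8.51 FPKM, and ZIC1, at 3.83 and 2.66. Oligodendrocyte markers had a summed level of 10076 and 8823 FPKM, with 9 of 10 below 0 and a median of -0.22. The part of these cells in the LEF1 and TCF7L2 values was not tested.

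**Figure D4:**
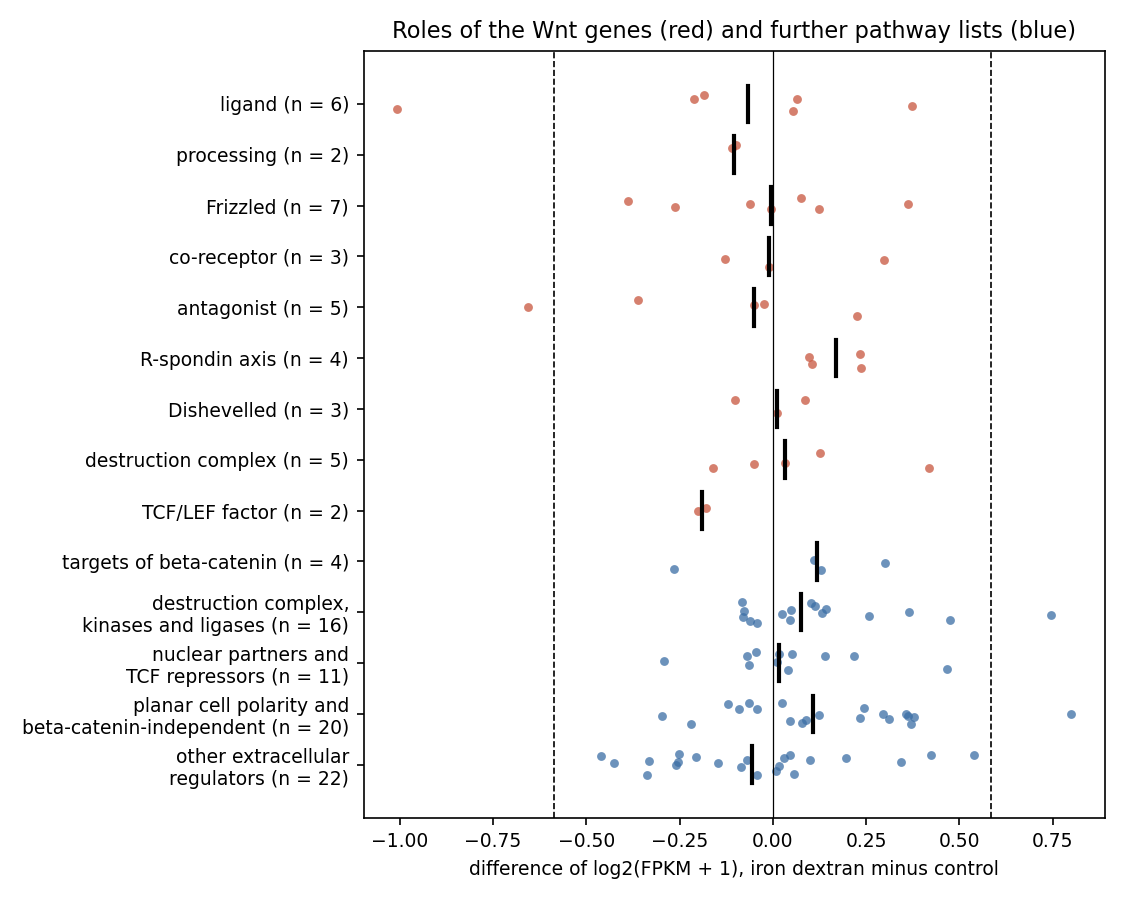
Iron dextran minus control in log2(FPKM + 1) for each measured Wnt gene by role (red points) and for measured genes of 5 further pathway lists (blue points); black bars are medians and dashed lines mark 1.5-fold. The 4 points of the R-spondin axis all lie above 0, and of the blue points only FBXW11 (0.74) and PRICKLE2 (0.80) pass 1.5-fold.

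Further genes of the pathway were read from 5 lists that left out the genes above. Together 99 genes had rows and 73 were measured. Of the 73, 2 were higher, none was lower, 45 were above 0 and 28 below, with a median log2 difference of 0.046. Over all measured genes 2.47% were higher and 1.47% lower, with 6154 above 0 and 6402 below and a median of -0.0046. Differences of all genes also shifted with level. Their quartiles were -0.13 and 0.25 from 1 to under 2 FPKM, and -0.16 and -0.028 from 100 FPKM upward. A split over all levels is therefore not matched to the lists. The lists were described by these counts alone, with no test.

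Among genes that beta-catenin is known to activate, 4 of 18 were measured and none passed 1.5-fold. MYC, a growth regulator, had 6.06 and 7.69 FPKM, and CD44, a receptor for hyaluronan, had 2.34 and 1.78. NEUROD1, a transcription factor of new granule neurons, had 5.85 and 6.50 FPKM, and TNFRSF19 had 5.01 and 5.48. The median was 0.12 over these 4.

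The destruction complex and its kinases and ligases were represented by 16 measured genes, of which 1 was higher and none lower, with a median of 0.075. FBXW11, which with its relative BTRC marks phosphorylated beta-catenin for degradation, had 5.56 FPKM in the control and 9.98 in the iron dextran sample, a log2 difference of 0.74. The tankyrases, which mark AXIN for degradation, had higher values in iron dextran: TNKS had 1.57 and 2.57 FPKM and TNKS2 had 13.9 and 16.8. AMER3, of a family that binds APC, had 3.69 and 5.04 FPKM. These 4 were named because they differed most within their list.

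Nuclear partners of beta-catenin and TCF repressors held 11 measured genes, none past 1.5-fold, with a median of 0.016. CDC73 had 2.85 and 4.32 FPKM, the chromatin remodeller CHD8 6.64 and 7.87. Of the Groucho corepressors, TLE2 had 20.7 and 16.8 FPKM and TLE1 6.32 and 7.06, so these relatives went in opposite directions.

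Planar cell polarity and other genes outside the beta-catenin branch held 20 measured genes, of which 1 was higher and none lower, beside 2.47% and 1.47% of all measured genes. Of the 20, 14 were above 0 and 6 below, with a median of 0.11, where all measured genes were split 6154 to 6402. That split mixes all levels. With the median of all genes in the same range of mean FPKM taken off, the median of the 20 was 0.059. For the 9 with a mean FPKM of at least 5 it was 0.046 as deposited. PRICKLE2, a core polarity protein found at synapses, had 1.23 FPKM in the control and 2.88 in the iron dextran sample, a log2 difference of 0.80, and was the 1 gene past 1.5-fold. The kinase ROCK1 had 1.79 and 2.62 FPKM, and the JNK kinases MAPK9 and MAPK8 had 7.57 and 10.1 FPKM and 2.31 and 3.25 FPKM.

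Other extracellular regulators held 22 measured genes, none past 1.5-fold, with a median of -0.055. CTHRC1, a secreted protein that can stabilise complexes of Wnt and Frizzled, had 4.19 and 6.54 FPKM. CTHRC1 also lies next to FZD6 in Sscrofa11.1, and FZD6 was level. ADGRA2, a co-activator of WNT7 signalling in brain endothelium, had 3.55 and 2.31 FPKM, a log2 difference of -0.46. KREMEN1, a receptor for Dickkopf proteins, had 1.05 and 1.75 FPKM, and MDFI had 7.05 and 4.99. The 8 endothelial markers with rows summed to 71.1 FPKM in the control and 66.6 in the iron dextran sample. Of these, 2 were above 0 and 6 below, with a median log2 difference of -0.086. TEK, which differed most of them, had 1.81 and 1.203 FPKM. The part of these cells in the ADGRA2 value was not tested.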

How the data were processed

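The authors deposited 1 table of FPKM values, with Ensembl pig gene IDs as rows and the 2 samples as columns. Columns were matched to samples by the letter shared with the sample title. The submitters' processing notes name cutadapt 1.2.1, TopHat and the builds Sscrofa10.2 and susScr3. The sources used here do not give the annotation, the use of strand or the program behind the FPKM values, so reads of overlapping or antisense genes may be mixed. FPKM is relative to the library total, which abundant genes can move.

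A naming table gave symbols to 11804 IDs. Differences of log2(FPKM + 1) were computed over all IDs (Python 3.11.15, pandas 2.3.3). The rule was tried on simulated data with changes placed only in genes well above the levels of WNT5B and SFRP5. That trial therefore does not bear on the calls of these 2 genes. Among 587 genes with a mean FPKM under 0.1 that were above 0 in both samples, 60.3% of the ratios of iron dextran to control lay within 0.05 log2 units of 1, 2 or 0.5 times a common value chosen at their peak. Read as whole fragments, these steps give the iron dextran sample 1.06 times the depth of control; absolute depth is unknown.

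Every Wnt gene is named by its role. Of each pathway list, the 4 measured genes with the largest absolute difference are named, with MAPK10 added, and of each marker list up to 2. Marker genes were named only beside a pathway gene that they moved with, so their direction was part of the choice. The lists for choroid plexus, astrocytes, and pericytes and smooth muscle were also read and are not described above (medians 0.19, 0.065 and -0.088). Nor are the differences of the subfield and neuron lists. Their medians were 0.15 for dentate granule genes, 5 of 6 above 0, and -0.12 for CA3 and CA2 genes, 2 of 6 above 0. For CA1 genes the median was 0.0035 and for neurons -0.026. The part of subfields in the Wnt values was not tested. SNAP25, PROX1, TDO2, MAPK10 and the genomic neighbours were named after their values were seen. The members and lists were chosen with earlier results of these data known. Alternatives were other pseudocounts, filters, scalings and folds. No reference sequence was used here.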

Additional observations from a re-analysis of the deposited data

How the results depend on the processing

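No paired analysis was possible because each group is 1 sample, and for the same reason none could be left out. The WNT5B call held under every alternative that kept the gene, which a mean FPKM of at least 5 did not, and SFRP5 lost its call with the same column total (-0.58). WNT16 passed 1.5-fold with pseudocounts of 0.1 (0.64) and 0.01 (0.69), which made 1 Wnt gene, a ligand, higher. The count of lower Wnt genes was 1 of 37 at 2-fold and with the same column total, with 0 antagonists in both cases. It was 0 of 20 at a mean FPKM of at least 5, with 0 ligands and 0 antagonists lower, because fewer genes are tested. There 1 Frizzled gene, FZD2, set its family's median (-0.39).

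Over 12557 genes, the counts higher and lower were 558 and 332 with a pseudocount of 0.1, 599 and 357 with 0.01, and 93 and 53 at 2-fold. They were 113 and 71 of 8394 genes where the mean had to reach 5 FPKM. With no filter 282 of 17452 genes were lower. With the same column total the counts were 454 and 132 of 12557 genes, against 310 and 185 as deposited. That scaling raises every difference by construction. It turned 8 medians from below 0 to above it, among them ligands (0.022) and Frizzled receptors (0.094). Its medians were 0.10 for all genes, 0.094 for the Wnt genes, 0.010 for ligand processing, 0.097 for co-receptors, 0.068 for antagonists, 0.27 for the R-spondin axis, 0.13 for Dishevelled and -0.090 for TCF and LEF factors. Among the further lists it gave 0.22 for beta-catenin targets, 0.19 for the destruction complex, 0.12 for nuclear partners and 0.056 for other extracellular regulators, of which 1 was then higher. With either smaller pseudocount 2 destruction complex genes, 1 nuclear partner and 2 extracellular regulators were higher and 1 extracellular regulator was lower. At 2-fold 0 destruction complex and 0 polarity genes were higher, and with a minimum mean of 5 FPKM 0 polarity genes were.

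The sign of 9 of 37 Wnt differences changed with the same column total. Centring by range of mean FPKM, added after the data had been seen, changed 3 signs and no count by over 1.5 times. Depth limits most the 15 genes below a mean FPKM of 1.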
